A study of Rattus norvegicus with 10 samples.

Results

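Cartilage treated with the αKlotho and sTGFBR2 vectors was compared with cartilage at the stage of disease at which those vectors were given, in knee joints of rats with osteoarthritis induced by papain. The treated group (KT, 2 libraries) was dissected 10 weeks after an injection of papain with L-cysteine, and AAV-DJ-Klotho together with AAV-DJ-TGFBR2 had been injected at week 4. The earlier group (OAC, 3 libraries) was dissected 4 weeks after papain with L-cysteine and had received no vector. These 5 of the 10 libraries of the series were chosen by their labels alone, and all 17419 transcripts of the expression table were considered, of which 11282 reached a mean of 0.5 FPKM (read fragments scaled by transcript length and library size) over the 10 libraries and were tested. KT and OAC differ both in the vectors and in the time since papain, which cannot be told apart from this pair alone. The SHAM group (3 libraries) was dissected at the same 10 weeks after papain with L-cysteine and had received AAV-DJ-GFP at week 4, so that KT against SHAM gives the test of whether the change from OAC to KT differed from the change from OAC to SHAM. Healthy cartilage (HC, 2 libraries, wild-type and untreated) is given as a reference level. The labels give an age of 5 months for every animal group. The strain, the promoter in the vectors, the species of their inserts and the number of animals behind a library are not given in the sources used here, so the p-values rest on library-to-library spread, and that spread could be technical.

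Papain, a plant protease, depletes the proteoglycan of articular cartilage, and injecting it into a joint is a chemical model of osteoarthritis. AAV-DJ is an engineered adeno-associated virus capsid used to carry a gene into cells. αKlotho is a co-receptor for the hormone FGF23 whose shed form circulates, and loss of it in rodents gives a syndrome that resembles ageing. TGFBR2 is the type II receptor for TGF-beta, and its soluble form binds the ligand away from the cell. The circadian clock, which recurs below, is a feedback loop present in chondrocytes as in most cells: ARNTL (also called BMAL1) pairs with CLOCK or NPAS2 and activates the Per, Cry, Nr1d and Tef genes through E-box sequences, PER and CRY proteins inhibit that pair, and the NR1D receptors repress Arntl.

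The libraries held 52400000 to 70900000 reads, of which 58.6 to 64.4% fell on the listed transcripts, and KT and OAC lay within that range. All 10 markers of knee cartilage were detected in every library, with a summed level of 5376, 7872 and 7566 FPKM in OAC and 6617 and 9582 FPKM in KT. The healthy libraries were unlike each other. Their sum over 33 skeletal muscle genes was 42706 and 661 FPKM, against 492 to 8249 FPKM in the other groups. They correlated at 0.913, against 0.970 to 0.988 within the other groups. The part of muscle in the healthy levels given below was not tested. Names in the deposited header carry a numbered tag whose meaning is not given. The treated libraries have tags 1 and 3, and the 3 disease libraries have tags 2, 2 and 3. Tag 2 occurs in OAC alone and tags cannot be tied to single columns. Whatever the tag stands for thus cannot be told apart from the group for those 2 libraries. No library was left out, but the number of calls rested on single libraries, as given beside the counts.

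The sequences upstream of 4 clock genes and 1 interferon effector are shown because members of these groups recur among the genes that changed. They are the 250 bases before the RefSeq gene start in the rat build GRCr8, with the motif found in each in capitals. Per2 and Arntl were added after their values had been seen. Tef (chr7:115206577-115206826, plus strand) and Ciart (chr2:186112247-186112496, minus strand) hold the E-box CACGTG. Per2 (chr9:99496994-99497243, minus strand) holds the D-box TTATGTAA, and Arntl (chr1:176766078-176766327, plus strand, named Bmal1 in RefSeq) the half-site AGGTCA of the ROR and NR1D receptors. Oas3 (chr12:41439482-41439731, plus strand) holds the interferon response letters GAAA, any 2 bases, GAAA, of which the window of Oasl, the other called interferon effector, had 0 matches.
Tef: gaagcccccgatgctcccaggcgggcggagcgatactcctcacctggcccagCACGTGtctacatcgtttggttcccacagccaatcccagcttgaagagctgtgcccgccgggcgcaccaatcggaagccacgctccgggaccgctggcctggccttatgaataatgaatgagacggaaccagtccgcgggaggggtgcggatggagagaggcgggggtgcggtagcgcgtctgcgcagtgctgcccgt
Ciart: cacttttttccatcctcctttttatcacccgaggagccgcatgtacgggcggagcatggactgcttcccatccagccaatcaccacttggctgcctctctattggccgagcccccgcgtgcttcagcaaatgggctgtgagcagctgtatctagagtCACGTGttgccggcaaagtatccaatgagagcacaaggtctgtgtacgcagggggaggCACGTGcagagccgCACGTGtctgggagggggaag
Per2: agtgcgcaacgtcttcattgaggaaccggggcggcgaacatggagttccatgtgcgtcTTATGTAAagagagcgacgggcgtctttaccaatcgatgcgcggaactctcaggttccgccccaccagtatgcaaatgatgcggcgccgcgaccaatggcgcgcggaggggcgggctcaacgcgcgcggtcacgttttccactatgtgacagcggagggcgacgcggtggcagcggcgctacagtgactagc
Arntl: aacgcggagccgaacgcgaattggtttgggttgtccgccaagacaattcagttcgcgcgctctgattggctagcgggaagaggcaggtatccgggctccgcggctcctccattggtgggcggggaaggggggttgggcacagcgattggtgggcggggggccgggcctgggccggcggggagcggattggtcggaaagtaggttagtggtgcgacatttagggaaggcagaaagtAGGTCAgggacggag
Oas3: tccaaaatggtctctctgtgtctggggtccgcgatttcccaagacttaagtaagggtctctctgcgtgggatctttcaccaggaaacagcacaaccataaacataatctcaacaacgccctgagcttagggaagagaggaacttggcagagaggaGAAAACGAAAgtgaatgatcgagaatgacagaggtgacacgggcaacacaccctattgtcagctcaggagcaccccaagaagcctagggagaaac
Both strands of a 300 base window, from 250 bases before to 50 after the start, were searched. In Tef the E-box starts 198 bases before the gene start. In Ciart the 3 E-boxes start 93, 35 and 21 bases before it. The D-box of Per2 starts 192 bases, the half-site of Arntl 15 bases and the interferon response letters of Oas3 95 bases before the start. Of 33469 rat promoters of the same length, 6.42% held CACGTG, 1.01% a D-box (TTATGTAA or TTACGTAA), 16.18% AGGTCA and 3.92% the interferon response letters. Among the 35 called genes with a promoter sequence, 4 held CACGTG (Tef, Ciart, Lat and Pik3ap1) and 8 held AGGTCA. Those 8 were Arntl, Nr1d2, Oasl, Rag2, Tmem176b, Cdkn2a, Trem2 and Cxcl13, and AGGTCA was searched without the A/T context of a ROR element. A D-box and the interferon response letters were held by 1 gene each. None held TTCNNNGAA or the kappaB letters, which occur in 8.87% and 0.19% of promoters. These matches describe letters in a window and are not binding sites.

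Between OAC and KT, 45 transcripts passed the test, 29 higher and 16 lower in KT. That is 0.399% of the 11282 tested, with 0.257% higher and 0.142% lower. A difference of at least 1 on the log2(FPKM + 1) scale was seen in 27 of the 45, 21 higher and 6 lower, and on this scale the change of genes near 1 FPKM is understated. The KT and OAC libraries did not overlap for any of the 45, but this was so for 40.8% of all genes tested (17.5% higher, 23.3% lower). At an unadjusted p under 0.05 there were 2071 genes, or 18.4%, and the median difference over all genes was −0.05. Under quantile normalization 28 of 37 calls were higher. The 45 calls fell to 4 without the second KT library, to 4, 16 and 5 without OAC replicate 1, 2 and 3, and rose to 312 (75 higher, 237 lower) without the first KT library. Of the 45, 3, 4, 11, 5 and 41 were still called in those fits, and all 45 kept their direction. Kl, Mall and Npas2 were the 3 that passed without the second KT library. Kl, Mall, Arntl and Tef were the 4 that passed without OAC replicate 1, and with Npas2 they were the 5 that passed without OAC replicate 3. Every other gene called below therefore lost its call in each of these 3 fits. For comparison, 118 transcripts (1.05%) differed between KT and SHAM and 131 (1.16%) between SHAM and OAC, comparisons that share libraries with this one.

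**Figure D1:**
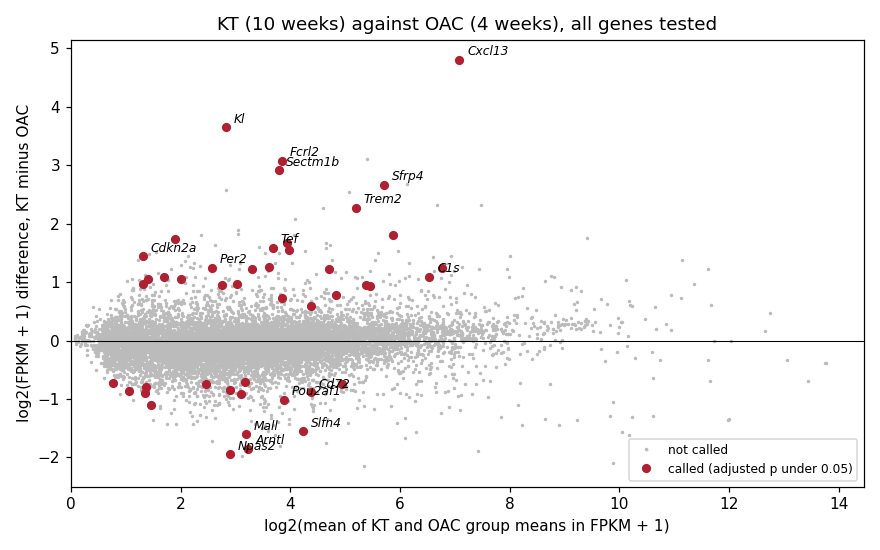
Difference between KT and OAC of each of the 11282 genes tested (vertical axis, log2 of FPKM + 1) against its mean level (horizontal axis, log2 of FPKM + 1), with the 45 called genes in red. Cxcl13 (4.80) and Kl (3.65) lie highest among the called genes and Npas2 (−1.95) lowest.

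The vector's own gene was checked first. Kl (chr12:942974-987206 in rn6) had 14.2 and 10.3 FPKM in KT and 0.024, 0.073 and 0.029 FPKM in OAC, from 3116 and 1938 reads against 6, 15 and 6 reads. Both treated libraries lay far above every other library, and SHAM was at 0.011, 0.022 and 0.039 FPKM. The mean was 291 times higher in KT than in OAC, and the log2 difference of 3.65 (SE 0.14) had an adjusted p of 1.21e-05. Reads from the vector and from the rat's own gene cannot be told apart here. Of the 22 measured genes of the Klotho and FGF axis, Kl was the only one that passed the test.

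Tgfbr2 (chr8:124312829-124398864), the receptor from which the second vector was made, did not pass the test. It had 42.8 and 30.7 FPKM in KT and 36.7, 52.1 and 54.8 FPKM in OAC, and the groups overlapped. The log2 difference was −0.37 with a 95% interval from −0.89 to 0.15 (adjusted p = 0.416), and the labels call the treatment sTGFBR2 without giving the sequence that the vector holds. None of 20 measured TGF-beta ligands, receptors and traps passed the test (median −0.03), nor did any of 20 TGF-beta response genes (median 0.38).

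Clock genes shifted between OAC and KT in both arms of the loop: the activators Arntl and Npas2 fell, and Per2, Nr1d2, Tef and Ciart rose. Of 12 measured core clock genes 2 rose and 2 fell, and of 10 clock output factors 2 rose. Arntl (chr1:178039063-178137471) had 17.2, 12.9 and 10.9 FPKM in OAC and 2.68 and 3.36 FPKM in KT. Its mean was 4.54 times lower in KT (log2 difference −1.85, SE 0.18, adjusted p = 0.0102). Npas2 (chr9:45901741-46081880), the partner that can stand in for CLOCK, had 12.8, 11.2 and 8.61 FPKM in OAC and 1.46 and 2.78 FPKM in KT, 5.13 times lower in the mean (log2 difference −1.95, SE 0.21, adjusted p = 0.0184). For both genes every OAC library was above both KT libraries, and so was healthy cartilage, which had 19.9 and 15.4 FPKM of Arntl and 10.6 and 10.9 FPKM of Npas2.

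Tef, Per2, Ciart and Nr1d2 passed the test as higher. Tef (chr7:123043503-123058606), a PAR bZIP factor that binds the D-box, had 5.13, 5.12 and 5.94 FPKM in OAC and 18.3 and 18.1 FPKM in KT (3.37 times higher, log2 difference 1.59, SE 0.13, adjusted p = 0.00359). Both treated values were close to each other and lay above every OAC library. Per2 (chr9:98555156-98597323), which binds and inhibits the activator pair, had 2.11, 2.79 and 2.69 FPKM in OAC and 7.45 and 7.25 FPKM in KT (2.91 times higher, log2 difference 1.25, adjusted p = 0.0331). Ciart (chr2:197987705-197991198), a clock repressor also known as CHRONO, had 0.751, 0.683 and 0.742 FPKM in OAC and 5.198 and 4.292 FPKM in KT (6.54 times higher, adjusted p = 0.0385). Nr1d2 (chr15:8730871-8757165), one of the 2 NR1D receptors that repress Arntl, had 14.33, 14.03 and 15.55 FPKM in OAC and 35.5 and 35.6 FPKM in KT (2.43 times higher, adjusted p = 0.0385), and it was named after its values were seen. Healthy cartilage had 10.2 and 13.4 FPKM of Tef, 3.82 and 6.32 FPKM of Per2 and 18.4 and 32.1 FPKM of Nr1d2. For these genes it lay above every OAC library and below both KT libraries. Its Ciart values of 0.603 and 1.51 FPKM overlapped OAC.

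Other members of the loop did not pass the test, and they are given here after their values were seen. Dbp, another PAR bZIP factor, had 15.7, 14.8 and 24.0 FPKM in OAC and 110 and 129 FPKM in KT, without overlap (log2 difference 2.68, 95% interval 1.59 to 3.77, adjusted p = 0.0696). Nr1d1, the other NR1D receptor, had a log2 difference of 1.49 (adjusted p = 0.114) and Per3 of 1.23 (adjusted p = 0.119). Per1 had 2.92, 9.23 and 13.3 FPKM in OAC and 13.0 and 20.9 FPKM in KT, so that the groups overlapped (adjusted p = 0.312). Clock differed by −0.35, Cry1 by −0.27 and Cry2 by 0.36 (adjusted p of 0.139, 0.477 and 0.176). In all, 10 of the 12 core genes showed no overlap between KT and OAC, 5 higher and 5 lower, where 40.8% of all genes did.

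None of these clock genes passed the test between KT and SHAM. Arntl had 2.77, 2.73 and 2.56 FPKM in SHAM and Tef 17.1, 14.1 and 16.6 FPKM, next to the KT values above. The log2 difference of KT from SHAM was 0.12 for Arntl (95% interval −0.29 to 0.53, adjusted p = 0.808), 0.33 for Npas2 (adjusted p = 0.498), 0.18 for Tef (adjusted p = 0.55) and −0.09 for Per2 (adjusted p = 0.844). The 2 groups taken at 10 weeks thus had these genes at levels not told apart by the test, and both stood away from the group taken at 4 weeks. The labels give no time of day for the dissections.

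**Figure D2:**
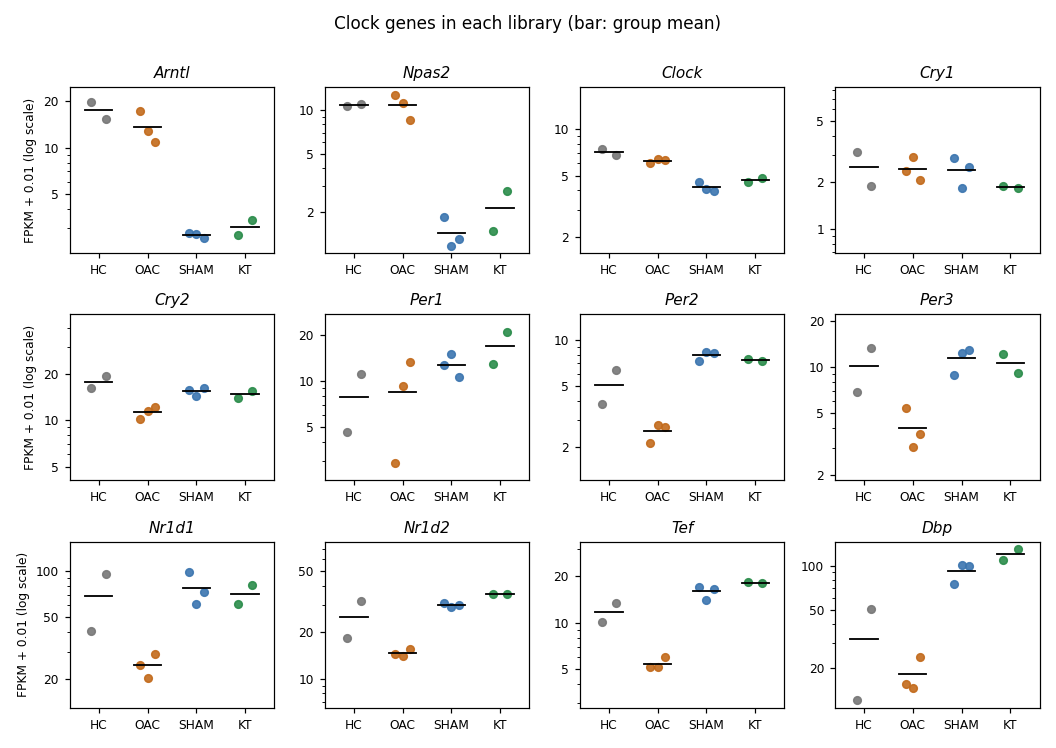
Level of 12 clock genes in each library, by group (vertical axes, FPKM + 0.01 on a log scale; the offset is used in the plot alone); points are libraries and bars group means. Arntl and Npas2 are lower, and Per2, Nr1d2 and Tef higher, in KT and SHAM than in OAC.

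Another set of genes stood apart in KT from both OAC and SHAM. Of the 45 called genes, 12 also passed the test against SHAM, 9 higher and 3 lower in KT (0.363% and 0.683% of all genes passed that test as higher and as lower). Both comparisons use the same KT libraries in the same fit, so a call in one makes a call in the other more likely. The shares of all genes are therefore a reference level and not a test of the 12. Besides Kl, the 12 were Sfrp4, Gpr34, Tmem100, Cdkn2b, C1ql3, Cd83, Rin2 and Pea15, which were higher, and Slfn4, Cd72 and Pik3ap1, which were lower. Sfrp4 (chr17:47383983-47394065), a secreted Frizzled-related protein that binds Wnt ligands, had the largest difference of these after Kl. It had 11.4, 19.2 and 9.86 FPKM in OAC, 7.85, 12.3 and 11.1 FPKM in SHAM, and 69.3 and 110 FPKM in KT. Its mean was 6.67 times higher in KT than in OAC (log2 difference 2.67, SE 0.30, adjusted p = 0.0184), and it differed from SHAM by 2.97 (adjusted p = 0.00253). The 8 libraries of the other 3 groups lay between 7.43 and 19.2 FPKM, so that both treated libraries stood clear of all of them. In the authors' deposited table Sfrp4 was higher in KT than in SHAM by a log2 fold change of 3.16 (adjusted p = 1.05e-24). That comparison was made from the same libraries. Of the 12, C1ql3 alone did not pass in it (adjusted p = 0.0818). Sfrp4 was the only call among 25 measured Wnt antagonists and signalling genes. Frzb, another secreted Wnt antagonist of cartilage, had 84.1, 64.8 and 58.4 FPKM in OAC and 91.0 and 119 FPKM in KT (log2 difference 0.60, adjusted p = 0.168), below the 154, 166 and 135 FPKM of SHAM.

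The 2 neighbouring inhibitors of the cell cycle on chromosome 5 both rose. Cdkn2a (chr5:107823323-107832405), which encodes p16INK4a and ARF and is a marker of senescence, had 0.125, 0.633 and 0.252 FPKM in OAC and 1.90 and 3.43 FPKM in KT (7.91 times higher, log2 difference 1.44, SE 0.22, adjusted p = 0.0385). Cdkn2b (chr5:107851701-107857385), which encodes p15INK4b, had 0.529, 0.934 and 0.679 FPKM in OAC and 2.828 and 2.295 FPKM in KT (3.59 times higher, log2 difference 1.06, SE 0.14, adjusted p = 0.0331). Both genes stood at low levels, and in neither did the groups overlap. The call of Cdkn2a was lost with no filter, a pseudocount of 0.1, voom, array weights, a replicate block and only the 2 groups fitted. That of Cdkn2b was lost with the replicate block and with only the 2 groups fitted. Against SHAM, which had 0.535, 0.925 and 0.636 FPKM of Cdkn2a, the log2 difference was 1.08 for Cdkn2a (adjusted p = 0.0648) and 0.89 for Cdkn2b (adjusted p = 0.0279). In the authors' deposited table, where 3.67% of 14084 transcripts passed between KT and SHAM, both had passed, with adjusted p of 0.0229 and 6.6e-05. They were the 2 calls among 16 measured genes of senescence and cell cycle inhibition, a list whose median was −0.07.

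Genes of the cell division cycle lay on the other side. None of 33 passed the test, their median difference was −0.66, and in 29 both KT libraries were below every OAC library (23.3% of all genes were). Top2a, a topoisomerase of dividing cells picked after its values were seen, had 35.0, 32.3 and 25.7 FPKM in OAC and 21.6 and 12.6 FPKM in KT (log2 difference −0.86, adjusted p = 0.187). Sertad1, a transcriptional co-regulator that binds CDK4, rose from 16.4, 15.8 and 14.8 FPKM to 24.6 and 23.4 FPKM (log2 difference 0.58, adjusted p = 0.0426). The summed levels of marrow and of B cell genes, given further on, were lower in both KT libraries than in every OAC library, though 0 of 22 and 2 of 18 measured members passed as lower, and their part in the cell cycle values was not tested.

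Pea15, Rin2, Tmem100 and C1ql3 were named after their values were seen, as was Sertad1 above. Pea15, a phosphoprotein that binds ERK, had 27.5, 30.7 and 29.2 FPKM in OAC and 55.7 and 57.0 FPKM in KT (1.94 times higher, log2 difference 0.93, SE 0.10, adjusted p = 0.0184). Rin2, an exchange factor for RAB5, had 18.3, 21.1 and 20.6 FPKM in OAC and 35.4 and 34.9 FPKM in KT (1.76 times higher, adjusted p = 0.0388). In both genes the healthy and SHAM libraries were much closer to OAC than to KT, with at most 37.5 FPKM of Pea15 and 23.7 FPKM of Rin2. Tmem100, a membrane protein of the BMP pathway in endothelium, had 25.97, 26.98 and 28.55 FPKM in OAC and 45.9 and 62.3 FPKM in KT (adjusted p = 0.0393), and C1ql3, a secreted protein with a C1q domain, had 0.867, 0.651 and 0.560 FPKM in OAC and 2.19 and 2.41 FPKM in KT (adjusted p = 0.034). None of 17 endothelial genes passed the test (median −0.31).

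**Figure D3:**
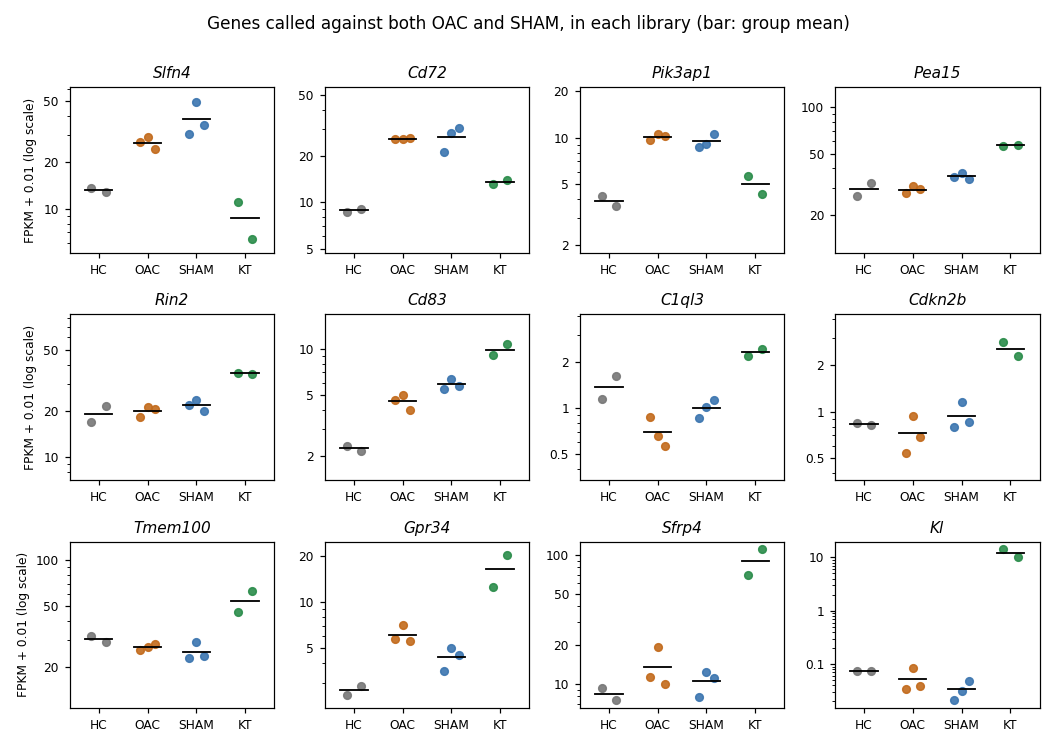
Level in each library of the 12 genes called in KT against OAC and in KT against SHAM (vertical axes, FPKM + 0.01 on a log scale); points are libraries and bars group means. Both KT libraries lie above all others for Sfrp4, Gpr34, Pea15 and Rin2, while for Slfn4 they lie below all others.

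Single genes of macrophages, chemokines and complement also rose, with 1 call in each of the 3 lists given below. Cxcl13 (chr14:15253149-15258185), a chemokine that attracts B cells, showed the largest log2 difference of all called genes. It had 3.11, 20.9 and 5.08 FPKM in OAC and 134 and 386 FPKM in KT (26.8 times higher, log2 difference 4.80, SE 0.67, adjusted p = 0.0331). The treated libraries lay far apart from each other, yet the lower one was well above the highest OAC library. SHAM had 187, 264 and 154 FPKM, and the difference of KT from it did not pass the test (log2 difference 0.21, adjusted p = 0.908). Cxcl13 was the only call among 22 measured inflammatory cytokines and NF-kB genes (median 0.31).

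Trem2 (chr9:14611561-14618013), a lipid-sensing receptor of macrophages, had 11.8, 12.5 and 9.07 FPKM in OAC and 41.0 and 79.6 FPKM in KT (5.42 times higher, log2 difference 2.27, SE 0.30, adjusted p = 0.0331). SHAM had 29.6, 51.0 and 33.2 FPKM, above OAC and overlapping KT (log2 difference of KT from SHAM 0.62, adjusted p = 0.377). Trem2 was the only call among 25 measured macrophage markers, whose median difference was 0.57 and whose summed level was 4849, 4176 and 3656 FPKM in OAC and 5695 and 7312 FPKM in KT. All 26 listed macrophage markers were detected in at least 1 library, and their part in the Trem2 difference was not tested. In bulk tissue more cells of a type and more RNA per cell cannot be told apart.

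Gpr34 (chrX:10023489-10031167), a lysophospholipid receptor of microglia and macrophages, had 5.70, 7.05 and 5.61 FPKM in OAC and 12.4 and 20.4 FPKM in KT (2.68 times higher, adjusted p = 0.0455). It also differed from SHAM, which had 3.53, 5.05 and 4.50 FPKM (log2 difference 1.67, adjusted p = 0.00633). Among the alternatives that kept all KT and OAC libraries, the call of Gpr34 against OAC held only with a minimum mean of 1 FPKM. P2ry6, a receptor for UDP, had 1.61, 1.88 and 1.36 FPKM in OAC and 3.70 and 5.25 FPKM in KT (adjusted p = 0.0455), and the SHAM values of 3.56, 5.03 and 4.72 FPKM overlapped those of KT. Cd83, a surface protein of activated antigen-presenting cells, had 4.61, 5.01 and 4.01 FPKM in OAC and 9.05 and 10.7 FPKM in KT (adjusted p = 0.0245). Ch25h, the enzyme that makes 25-hydroxycholesterol, had 1.181, 1.333 and 0.755 FPKM in OAC and 3.64 and 3.16 FPKM in KT (adjusted p = 0.034). SHAM had 2.54, 3.14 and 2.49 FPKM of Ch25h, and KT against SHAM did not pass the test (adjusted p = 0.499). In each of these 4 genes, named after their values were seen, KT and OAC were separate.

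Fcrl2 (chr2:186594442-186605092), an Fc receptor-like protein, had 3.45, 1.40 and 1.61 FPKM in OAC and 22.5 and 27.1 FPKM in KT (11.5 times higher, log2 difference 3.08, SE 0.42, adjusted p = 0.0331). SHAM had 4.33, 5.36 and 4.07 FPKM, and the log2 difference of KT from it was 2.21 (adjusted p = 0.0502), which just missed the threshold, while in the authors' deposited table it was 2.48 (adjusted p = 6.7e-27). Sectm1b, a secreted and transmembrane protein, had 1.79, 2.60 and 2.31 FPKM in OAC and 20.9 and 25.9 FPKM in KT (10.5 times higher, adjusted p = 0.0251), within the range of SHAM at 39.2, 41.8 and 20.6 FPKM. C1s (chr4:157143592-157155596), a serine protease of the first complement component, had 53.4, 67.1 and 54.9 FPKM in OAC and 124 and 127 FPKM in KT (2.14 times higher, adjusted p = 0.0245). For C1s the SHAM libraries were higher still, at 204, 193 and 188 FPKM. Among 22 measured complement genes C1s was the only call, the median difference was 0.65, and 13 were higher in KT without overlap (17.5% of all genes were).

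Genes of lymphocyte development and signalling were among those that fell. Pou2af1 (chr8:55603968-55631446), a coactivator of octamer factors in B cells, had 18.1, 20.8 and 17.2 FPKM in OAC and 9.32 and 8.22 FPKM in KT (2.13 times lower, log2 difference −1.01, SE 0.16, adjusted p = 0.0426). Rag2, a subunit of the V(D)J recombinase of developing lymphocytes, had 2.17, 2.57 and 2.08 FPKM in OAC and 1.05 and 0.736 FPKM in KT (adjusted p = 0.0385). These were the 2 calls among 18 measured B cell markers, with a median of −0.78 and 15 lower without overlap, against 23.3% of all genes. Cd72 (chr5:58943021-58950373), a co-receptor that dampens B cell receptor signals, had 25.8, 25.8 and 26.1 FPKM in OAC and 13.2 and 14.0 FPKM in KT (1.91 times lower, adjusted p = 0.0393). Pik3ap1, an adaptor that links the B cell receptor to PI3-kinase, had 9.57, 10.6 and 10.3 FPKM in OAC and 5.64 and 4.30 FPKM in KT (2.04 times lower, adjusted p = 0.034). Lat, the adaptor below the T cell receptor, had 10.56, 10.52 and 9.498 FPKM in OAC and 6.01 and 5.61 FPKM in KT (adjusted p = 0.0331), and it was named after its values were seen. The OAC values of these 5 genes were close to each other and the KT values lay nearer to healthy cartilage, which had 8.65 and 9.08 FPKM of Cd72.

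The summed level of 18 B cell markers, which include Pou2af1 and Rag2, was 230, 218 and 219 FPKM in OAC and 128 and 122 FPKM in KT. It was 183, 171 and 236 FPKM in SHAM, and none of the 18 was at 0 in any library. The sum over 31 T and NK cell markers was 236, 166 and 154 FPKM in OAC and 151 and 118 FPKM in KT. Marrow genes were lower as well: the sum over 24 neutrophil and marrow genes was 23800, 20221 and 18404 FPKM in OAC and 13472 and 6633 FPKM in KT. None of 22 measured neutrophil and marrow genes passed the test, with a median of −1.23 and 17 lower without overlap, against 23.3% of all genes. Camp, an antimicrobial peptide of neutrophil granules picked after its values were seen, had 952, 817 and 776 FPKM in OAC and 492 and 217 FPKM in KT (log2 difference −1.37, adjusted p = 0.0957). S100a8, a calcium-binding protein of neutrophils picked in the same way, had 6729, 5295 and 5274 FPKM in OAC and 3393 and 1509 FPKM in KT (adjusted p = 0.132). In both genes the second KT library was the lowest of the 5. When the first KT library was left out, 10 of the 22 passed as lower and the median was −1.66, and without the second KT library none passed and the median was −0.65. The part of the cell content in the lymphocyte values was not tested.

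The interferon effectors Oasl and Oas3 fell, as did Slfn4. Slfn4 (chr10:70411738-70435156), a schlafen protein of myeloid cells, had 27.0, 29.1 and 24.3 FPKM in OAC and 11.1 and 6.39 FPKM in KT (3.06 times lower, log2 difference −1.55, SE 0.24, adjusted p = 0.0385). In SHAM it had 30.6, 49.6 and 35.2 FPKM, and the log2 difference of KT from SHAM was −2.03 (adjusted p = 0.00504). The KT libraries were thus below every OAC, SHAM and healthy library. Oasl, an oligoadenylate synthetase-like protein, had 2.33, 2.68 and 2.02 FPKM in OAC and 0.841 and 0.727 FPKM in KT (2.99 times lower, adjusted p = 0.0385). Oas3, which makes the oligoadenylates that activate RNase L, had 1.19, 1.16 and 0.999 FPKM in OAC and 0.305 and 0.255 FPKM in KT (3.98 times lower, adjusted p = 0.0385). Its KT level was about that of healthy cartilage, 0.300 and 0.337 FPKM. Oasl and Oas3 were the 2 calls among 30 measured type I interferon effectors, with a median of −0.55 and 23 lower without overlap (23.3% of all genes were).

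The genes induced by interferon-gamma followed another course. None of 17 passed between OAC and KT (median 0.06), while 13 of the 17 were lower in KT than in SHAM, in a comparison in which 0.683% of all genes were. The list was chosen with earlier results of these data known, so that share is a reference level and not a test. Ubd, a ubiquitin-like modifier induced by interferon-gamma, had 0.127, 0.927 and 0.257 FPKM in OAC, 66.2, 64.9 and 42.8 FPKM in SHAM, and 0.383 and 1.42 FPKM in KT. OAC and KT overlapped (log2 difference 0.39, 95% interval −0.35 to 1.13, adjusted p = 0.546), and the log2 difference of KT from SHAM was −4.98 (adjusted p = 0.000335). Cxcl9, a T cell chemokine, had 1.004, 1.097 and 0.750 FPKM in OAC, 41.1, 101 and 37.9 FPKM in SHAM, and 1.81 and 6.42 FPKM in KT (log2 difference 1.23, adjusted p = 0.224). Both KT values were above OAC and far below SHAM. Gbp2 and Irf1, named after their values were seen, differed between OAC and KT by 0.18 and −0.33 (adjusted p of 0.735 and 0.281). The same held for the immunoproteasome and peptide loading, with no call among 12 between OAC and KT (median −0.05) and 9 lower in KT than in SHAM.

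**Figure D4:**
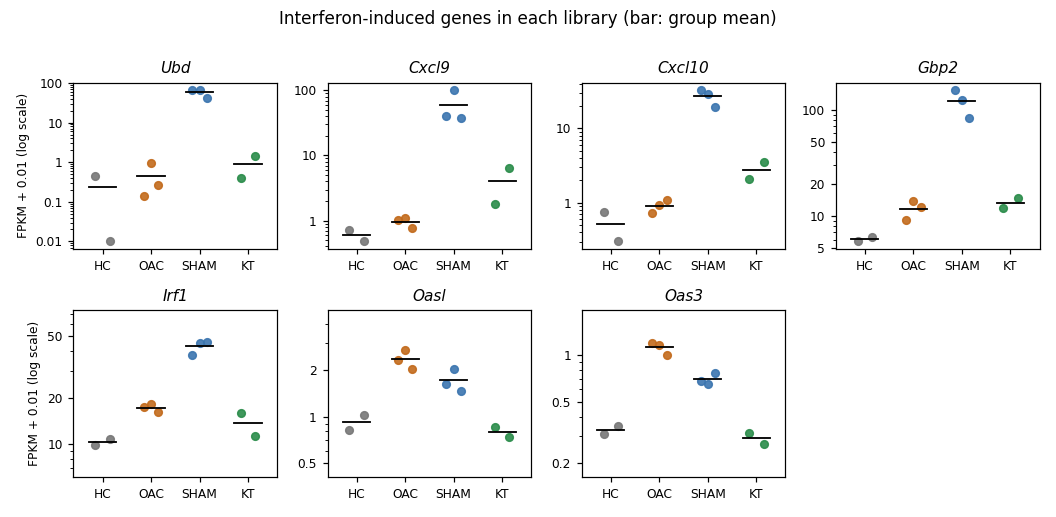
Level of 7 interferon-induced genes in each library (vertical axes, FPKM + 0.01 on a log scale); points are libraries and bars group means. Ubd, Cxcl9, Cxcl10, Gbp2 and Irf1 peak in SHAM, while Oasl and Oas3 are highest in OAC.

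Antigen presentation by MHC class II lay between these patterns. None of 12 measured genes passed between OAC and KT, the median was 0.47, and 6 were higher without overlap (17.5% of all genes were). Cd74, the invariant chain, had 474, 327 and 367 FPKM in OAC and 567 and 871 FPKM in KT (log2 difference 0.87, adjusted p = 0.202). The class II chain RT1-Da had 164, 128 and 130 FPKM in OAC and 223 and 477 FPKM in KT (log2 difference 1.22, adjusted p = 0.15). Both were picked after their values were seen, and in both the SHAM libraries were higher than every KT library.

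No gene of the cartilage matrix passed the test. Of 24 measured collagens and matrix genes the median difference was 0.11, and 10 were higher and 4 lower in KT without overlap, against 17.5% and 23.3% of all genes. Acan (chr1:140762758-140824441), the large aggregating proteoglycan, had 175, 239 and 200.2 FPKM in OAC and 308 and 370.3 FPKM in KT (1.66 times higher, log2 difference 0.73, 95% interval 0.30 to 1.17, adjusted p = 0.143). Prg4, the lubricin of the joint surface, had 1062, 1536 and 1188 FPKM in OAC and 2778 and 3771 FPKM in KT (2.60 times higher, log2 difference 1.38, 95% interval 0.59 to 2.17, adjusted p = 0.136). For both genes the KT libraries lay above OAC and within the range of healthy cartilage or just below it. Healthy cartilage had 350.3 and 460.2 FPKM of Acan and 2072 and 4344 FPKM of Prg4. SHAM had 359, 284 and 356 FPKM of Acan and 2548, 1651 and 2291 FPKM of Prg4. Comp, a pentameric matrix protein, had 875, 1027 and 930.5 FPKM in OAC and 1222 and 1666 FPKM in KT (log2 difference 0.60, adjusted p = 0.235). Sox9, the chief transcription factor of chondrocytes, had 12.6, 16.2 and 9.34 FPKM in OAC and 18.5 and 27.1 FPKM in KT (log2 difference 0.80, adjusted p = 0.169). In KT against SHAM, Acan, Prg4, Comp and Sox9 did not pass the test either (adjusted p of 0.952, 0.451, 0.631 and 0.437).

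The collagens of hyaline cartilage leaned the other way. Col2a1 (chr7:139455242-139483997), its main collagen, had 2741, 4544 and 4644 FPKM in OAC and 1801 and 3202 FPKM in KT, and the groups overlapped (log2 difference −0.69, 95% interval −1.61 to 0.24, adjusted p = 0.395). Col9a1, a chain of the collagen that decorates type II fibrils, had 47.5, 67.0 and 81.5 FPKM in OAC and 12.5 and 14.7 FPKM in KT (4.80 times lower, log2 difference −2.15, 95% interval −3.09 to −1.22, adjusted p = 0.081). Col9a1 was named after its values were seen, and healthy cartilage had 7.30 and 8.93 FPKM of it. The SHAM mean was 2497 FPKM of Col2a1 and 24.3 FPKM of Col9a1. Neither gene passed the test between KT and SHAM (adjusted p of 0.998 and 0.506).

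Among 26 measured matrix proteases none passed, and the members differed in sign. Between KT and SHAM, 5 of the 26 passed as higher in KT and 0 as lower, where 0.363% and 0.683% of all genes did. Mmp3 (chr8:5676608-5698579), stromelysin, had 109, 169 and 136 FPKM in OAC and 354 and 394 FPKM in KT (2.71 times higher, log2 difference 1.45, 95% interval 0.83 to 2.07, adjusted p = 0.0779). SHAM had 105, 175 and 124 FPKM of Mmp3, and KT was above it by a log2 difference of 1.4995 (adjusted p = 0.046). Mmp13, the main collagenase of cartilage, had 286, 517 and 934 FPKM in OAC and 315 and 132 FPKM in KT, with overlap (log2 difference −1.33, 95% interval −2.71 to 0.04, adjusted p = 0.281). Adamts5, the aggrecanase, had 3.67, 4.04 and 3.01 FPKM in OAC and 3.10 and 4.80 FPKM in KT, again with overlap (log2 difference 0.10, adjusted p = 0.826), and the difference was −0.15 without the second KT library. Timp1, an inhibitor of these enzymes picked after its values were seen, had 181, 228 and 259 FPKM in OAC and 343 and 406 FPKM in KT (log2 difference 0.76, adjusted p = 0.177).

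Fibrous matrix and bone genes showed wide spreads within the groups. Col3a1, a collagen of fibrous repair tissue, had 335, 665 and 388 FPKM in OAC and 760.2 and 835 FPKM in KT (log2 difference 0.85, adjusted p = 0.214). Its difference from SHAM was 1.87 (adjusted p = 0.0333). Postn, a matrix protein of periosteum and scar picked after its values were seen, had 16.2, 66.0 and 24.1 FPKM in OAC and 234 and 99.7 FPKM in KT (log2 difference 2.33, adjusted p = 0.143). Col1a1, the main collagen of bone and fibrous tissue, had 653, 1875 and 2216 FPKM in OAC and 782 and 282 FPKM in KT, with overlap (log2 difference −1.57, adjusted p = 0.284). None of 20 fibrous matrix genes passed (median 0.20). Between KT and SHAM, 4 of the 20 passed as higher in KT and 0 as lower, where 0.363% and 0.683% of all genes did.

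Acp5, the tartrate-resistant phosphatase of osteoclasts, had 502, 1822 and 2070 FPKM in OAC and 715 and 117 FPKM in KT (log2 difference −2.09, 95% interval −4.15 to −0.03, adjusted p = 0.266). Ctsk, the collagen-degrading cathepsin of the same cells, had 800.0, 2469 and 1969 FPKM in OAC and 828 and 319 FPKM in KT (adjusted p = 0.258). In both genes the first KT library was above the first OAC library, so that the groups overlapped. Bglap, the osteocalcin of osteoblasts picked after its values were seen, had 1914, 2210 and 2011 FPKM in OAC and 1487 and 210.1 FPKM in KT (adjusted p = 0.246). None of 15 osteoclast genes (median −0.78) or 17 osteoblast and osteocyte genes (median −0.92) passed. Their summed levels moved together: 1841, 5078 and 4794 FPKM of osteoclast genes in OAC against 2025 and 718 FPKM in KT, and 4701, 6205 and 7472 FPKM of osteoblast genes in OAC against 4662 and 2002 FPKM in KT. The first OAC library and the first KT library were close in both sums, and the part of bone carried along in dissection was not tested.

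**Figure D5:**
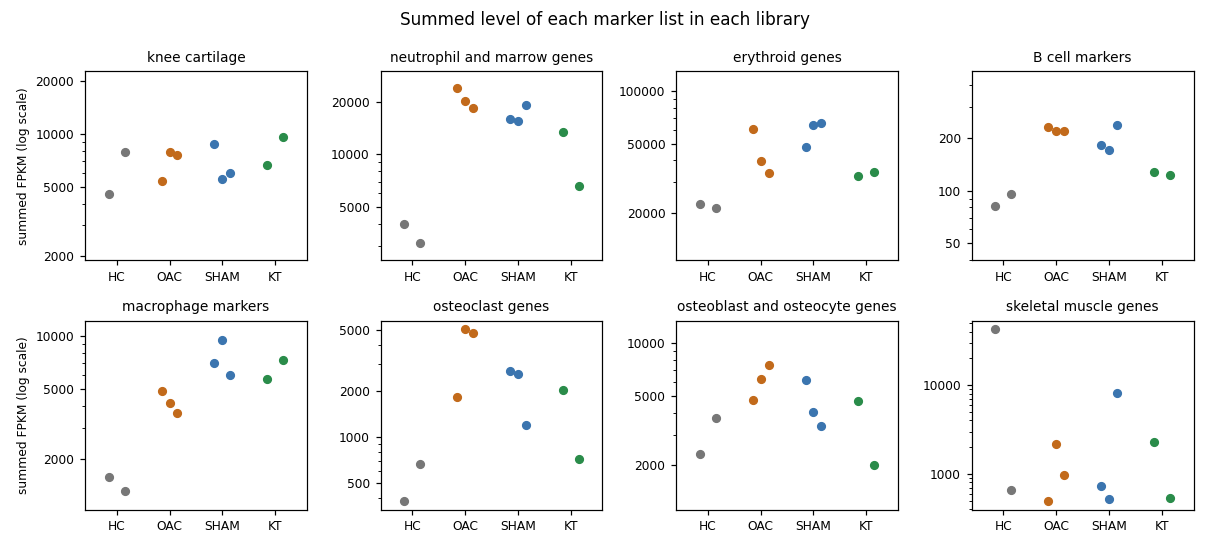
Summed FPKM of each marker list in each library, by group (vertical axes, log scale); points are libraries. The second KT library has the lowest sums of neutrophil and marrow genes (6633) and of osteoclast genes (718) among the OAC and KT libraries.

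The remaining called genes fall in no one pathway. Mall (chr3:120272583-120306551), a membrane protein of lipid rafts, had 14.6, 11.9 and 11.9 FPKM in OAC and 3.97 and 3.13 FPKM in KT (3.61 times lower, log2 difference −1.60, SE 0.13, adjusted p = 0.00359). SHAM had 4.28, 3.43 and 4.17 FPKM and healthy cartilage 13.0 and 13.2 FPKM, so both groups at 10 weeks lay below both other groups. Mall and Kl were the only 2 of the 45 that passed in all 14 alternative analyses. Ephx1, the microsomal epoxide hydrolase, had 7.42, 6.82 and 6.61 FPKM in OAC and 26.2 and 18.9 FPKM in KT (3.25 times higher, adjusted p = 0.0331). Hsd11b1, which regenerates active glucocorticoid from its inactive form, had 4.87, 5.79 and 4.05 FPKM in OAC and 10.2 and 15.6 FPKM in KT (2.63 times higher, adjusted p = 0.0385). Fxyd2, a regulatory subunit of the sodium-potassium pump, had 24.8, 32.7 and 18.2 FPKM in OAC and 72.0 and 107 FPKM in KT (3.56 times higher, adjusted p = 0.0385). All 3 rose without overlap, and none passed the test between KT and SHAM, with adjusted p of 0.794, 0.203 and 0.901.

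Of the rest, the transcript RGD1559482 rose 3.67 times, Tmem176b, a membrane protein of myeloid cells, 2.45 times, Arl4c, a small GTPase, 2.18 times, and Parp3, a poly(ADP-ribose) polymerase of DNA repair, 1.73 times (adjusted p of 0.0385, 0.0455, 0.0245 and 0.0331). The other 5 fell. Tmem35a, a chaperone of nicotinic receptors, was 3.73 times lower, Plppr3, a phospholipid phosphatase-related protein, 3.50 times, Neil1, a DNA glycosylase of base excision repair, 1.99 times, Dpp4, a dipeptidyl peptidase, 1.88 times, and Tspan14, a tetraspanin that guides ADAM10, 1.68 times (adjusted p of 0.0388, 0.0331, 0.0385, 0.0413 and 0.034). Dpp4 was the only call among 15 measured genes of the synovium and the superficial lining, whose median of 0.38 had the opposite sign. Parp3, Arl4c, Tmem176b and Tspan14 were named after their values were seen. None of the genes listed here, from RGD1559482 to Tspan14, passed the test between KT and SHAM. The smallest adjusted p there was 0.0562, for Plppr3. RGD1559482, Parp3 and Tmem35a differed between SHAM and OAC in the same direction (adjusted p of 0.0133, 0.021 and 0.0105), and the others did not pass there.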

How the data were processed

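RNA was sequenced from knee cartilage shaved from the joint surface with a blade, as stranded paired-end TruSeq libraries per the labels' protocols. The submitters' processing notes name STAR 2.5.3a, HOMER, DESeq2 1.18.1, FastQC 0.11.2 and the rat build rn6. The authors deposited FPKM per transcript and a table of comparisons with log2 fold changes and adjusted p-values made by the authors, from which only KT against SHAM is quoted, since the pair described here is not in it. Positions of transcripts in rn6 were taken from the FPKM table. For transcripts under 3000 bases and values under 1000 reads, FPKM values were whole multiples of 1 read (100% within 0.15 of a whole number), from which library sizes and reads were recovered.

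Genes averaging 0.5 FPKM or more were tested on log2(FPKM + 1) with limma 3.58.1 (R 4.3.3, intensity trend, group as the only term, all 10 libraries in one fit, 6 residual degrees of freedom), two-sided, with Benjamini-Hochberg adjustment over all 11282 genes. Calls were made where the adjusted p fell below 0.05, and every adjusted p here comes from this fit unless the authors' table is named. Intervals are 95% intervals of that fit. Folds are ratios of mean FPKM. Genes were named if they had one of the 12 largest called changes of their direction, with non-overlapping libraries and 1 FPKM or more on the higher side, if they were among up to 3 called members of each of 41 lists (891 of 948 entries matched), or if they belonged to a fixed set reported at any value, such as Kl, Col2a1 and Mmp13; genes outside this rule are marked in the text or are the remaining called genes. The members and lists were chosen with earlier results of these data known. Alternatives were other filters, pseudocounts, scalings, weights, groups fitted, a replicate block, voom on the recovered reads, and each library left out. Promoter sequences came from RefSeq (GRCr8), where 35 of the 45 called genes matched. Every interval of KT rests on 2 treated libraries, and the widths differed between genes. The standard error of KT minus OAC was 0.09 for Sertad1 and 0.91 for Acp5.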

Additional observations from a re-analysis of the deposited data

Results flagged for a closer look

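For 12 of the genes that changed between OAC and KT, the change differed from that between OAC and SHAM, by the test of KT against SHAM in the same fit (limma, Benjamini-Hochberg over all genes). The 12 were picked from the calls of KT against OAC, which uses the same KT libraries, so these tests are not independent. Kl differed by 3.67 on the log2(FPKM + 1) scale (adjusted p = 1.14e-05), Sfrp4 by 2.97 (0.00253), Gpr34 by 1.67 (0.00633) and Tmem100 by 1.06 (0.0132). Smaller positive differences were those of Cdkn2b at 0.89 (adjusted p = 0.0279), C1ql3 at 0.73 (0.0479), Cd83 at 0.67 (0.0395), Rin2 at 0.66 (0.0459) and Pea15 at 0.65 (0.0278). Negative differences were those of Slfn4 at −2.03 (adjusted p = 0.00504), Cd72 at −0.90 (0.0222) and Pik3ap1 at −0.81 (0.027). From OAC to SHAM the largest of these 12 changes in size was that of Slfn4, at 0.48 (adjusted p = 0.555), and none of the 12 passed the test there. No group had 4 libraries, so single libraries were not tested for standing apart.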

How the results depend on the processing

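The 45 calls between KT and OAC became 20 with no filter, 24 with voom on recovered reads and 17 when only the 2 groups were fitted. Of the 45 themselves, 18, 24 and 11 were still called in those fits, and 9 with the replicate number as a block. With a minimum mean of 1 FPKM, a pseudocount of 0.1, quantile normalization, median-of-ratios scaling and array weights there were 48, 41, 37, 44 and 37 calls. Leaving out single libraries gave 4 to 312 calls; where 1 KT library remained, it was assumed to vary like the other groups. Between KT and SHAM the 118 calls became 73 when only those 2 groups were fitted and 45 to 116 without single libraries. Without single libraries the difference of Adamts5 ranged from −0.15 to 0.35 and that of Ubd from −0.0151 to 0.79, negative without the second KT library; no other named gene changed sign in any alternative. Dbp passed with array weights (adjusted p = 0.024) and with only 2 groups fitted (0.023). The cause of these changes was not tested. Fits of 2 groups or without a library also held fewer samples. The labels state no pairing of libraries by replicate number. Deviations of same-numbered libraries correlated at −0.252 and −0.246 for KT and OAC, and at −0.334 and 0.267 for KT and SHAM. With 2 KT libraries these deviations mirror each other, so the correlations cannot decide whether libraries were paired. With the replicate number as a block 13 genes were called against OAC and 80 against SHAM. Depth was similar in all libraries, and with 2 treated libraries small differences in genes near 1 FPKM are the least certain.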
